A study of Rattus norvegicus with 12 samples.

Results

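Neurexins, neuroligins and calsyntenins are adhesion proteins of the synaptic cleft. The transcripts of 8 rat genes, Nrxn2, Nrxn3, Nlgn1, Nlgn2, Nlgn3, Clstn1, Clstn2 and Clstn3, were followed in hippocampal neurons after they had been deprived of oxygen and glucose (OGD), which models global cerebral ischemia in a dish. The genes were chosen by name, with earlier results of these data known. Their probes were found through the RefSeq accession printed on the array, which named 15154 genes in all. Of the 8 genes, 7 had a probe and Clstn1 matched none. These 7 genes had 11 probes, and each gene was described by the probe with its highest mean signal, with the other probes as a check.

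All cultures were primary hippocampal neurons from E18 Wistar rat embryos, kept for 14 to 15 days and estimated by their makers to hold a minority of glial cells. For OGD, cultures were placed for 2 h in a glucose-free saline buffer containing sucrose, in an anaerobic chamber, and then returned to conditioned medium. Controls spent the same period in the buffer with glucose in an air/CO2 incubator. Total RNA was taken after 7 h or 24 h of recovery, giving 4 groups of 3 arrays, each array with the RNA of 1 culture. No group was left without a change of buffer, so the controls share the transfer to saline with the OGD cultures.

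Neurexins are presynaptic membrane proteins that bind many partners across the cleft. Neuroligins are their best known postsynaptic receptors: neuroligin-1 is found mostly at excitatory synapses, neuroligin-2 at inhibitory synapses and neuroligin-3 at both. Calsyntenins are cadherin-repeat proteins of neurons, of which calsyntenin-3 promotes synapse formation from the postsynaptic side, and their relative calsyntenin-1 couples vesicles to kinesin-1 motors.

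Each of the 12 arrays was scanned with 1 color, and 78.3 to 87.1% of its spots were well above background. The arrays differed in brightness, and the OGD arrays of replicate 1 were the dimmest, with a median intensity of 234 at 7 h and 131 at 24 h against 364 to 660 on the other 10 arrays. Each of the 6 slides held the control and the OGD array of 1 recovery time and replicate number. On the slides of replicates 1 and 2 at 7 h the OGD array was scanned 211 min before its control, and on the slide of replicate 1 at 24 h it was scanned 177 min before. Therefore, OGD minus control is given within each slide, and results that rest on replicate 1 are given with and without it. Signals are log2 values after subtraction of the median probe of each array, so a value of 0 is the level of that median probe. All 11 probes were well above background on all 12 arrays and none was saturated.

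After OGD, the calsyntenins were the members that fell at both recovery times. Clstn3 was lower by 1.18 on the log2 scale at 7 h and by 1.38 at 24 h, and Clstn2 by 0.75 and 1.17. Nrxn3 passed the test at 24 h alone, where its difference was −0.87. Nrxn2 and all 3 neuroligins did not pass it at either time. A gene is said here to fall or rise where the unadjusted p of limma, a linear model with a spread shared across genes, was under 0.05. Since 30367 probes were tested, this threshold is a loose one: after Benjamini-Hochberg adjustment over all probes, 0 members and 0 probes of the array were under 0.05 by limma at either time, with adjusted p between 0.270 and 0.940 for the members at 7 h and between 0.252 and 0.953 at 24 h. Below, passing or losing the test refers to the unadjusted threshold, and the p-values printed are those adjusted over all probes.

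At 7 h all 7 members had a mean below control. In all, 2 members fell, where 8.06% of all genes did, and 0 rose, where 3.89% did. The fall of 1 of them was at least 2-fold, which 2.07% of all genes reached. The 2 were Clstn2 and Clstn3, which the original work on these arrays had already singled out. Their count beside the share of all genes is therefore not independent evidence. In 2 members every OGD array lay below every control array, which held for 17.9% of all genes at this time. The median difference of the 7 members was −0.20, against −0.11 for all genes. At 24 h all 7 members were again below control on average. Of these, 3 fell, where 6.9% of all genes did, and 0 rose, where 6.36% did. The 3 were the same 2 calsyntenins and Nrxn3, so the same limit holds. The fall was at least 2-fold for 2 members, against 2.38% of all genes. All OGD arrays lay below all control arrays for 2 members and for 7.55% of genes. The median difference at 24 h was −0.87 for the members and −0.03 for all genes. Without the OGD array of replicate 1 at 24 h these medians were −0.38 and −0.01.

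**Figure D1:**
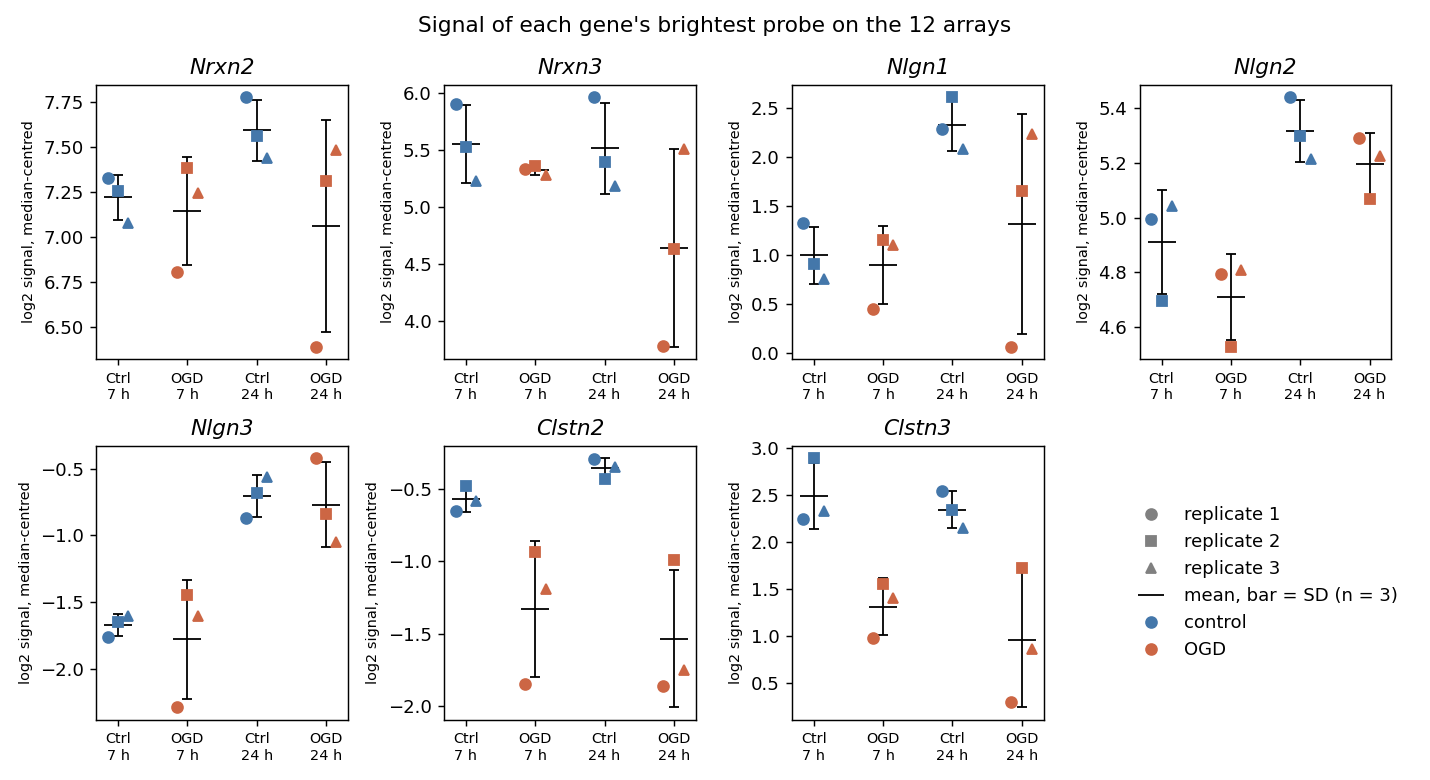
Log2 signal of the brightest probe of each of the 7 members, relative to the median probe of the array, on the 3 arrays of each group. Symbols mark the replicate number, and the line and bar are the mean and SD (n = 3). Control and OGD arrays are fully apart at both times for Clstn2 and Clstn3, while at 24 h the OGD array of replicate 1 lies far below the other 2 for Nrxn2 and Nlgn1 and is the lowest of evenly spaced arrays for Nrxn3.

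The promoter regions of the calsyntenins are shown here because these were the members that moved together. Both come from RefSeq on the GRCr8 build, whose promoter table held 6 of the 8 members and had no entry for Nrxn2 or Nrxn3. The region of Clstn2 is chr8:107516403-107516652 and that of Clstn3 is chr4:159051070-159051319, both on the minus strand, and each gives the 250 bases before the gene start from 5′ to 3′. Capitals mark the palindrome TGACGTCA, the full cAMP response element (CRE), which is the site bound by CREB.
Clstn2: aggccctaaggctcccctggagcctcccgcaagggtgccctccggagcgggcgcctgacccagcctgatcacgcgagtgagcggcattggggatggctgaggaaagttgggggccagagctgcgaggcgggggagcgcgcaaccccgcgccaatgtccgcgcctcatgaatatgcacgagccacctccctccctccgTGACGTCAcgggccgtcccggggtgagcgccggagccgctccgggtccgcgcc
Clstn3: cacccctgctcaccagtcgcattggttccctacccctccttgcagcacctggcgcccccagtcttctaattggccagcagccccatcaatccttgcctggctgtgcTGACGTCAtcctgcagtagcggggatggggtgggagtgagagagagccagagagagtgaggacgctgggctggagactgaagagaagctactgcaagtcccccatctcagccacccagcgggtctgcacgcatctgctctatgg
The element started 53 bases before the Clstn2 start and 144 bases before the Clstn3 start. It was found in 466 of 27457 rat promoter windows of the same length, or 1.70%. The windows of Nlgn1, Nlgn2, Nlgn3 and Clstn1 did not hold these letters. However, the Nlgn1 window lay within the span listed for that gene, and the Nlgn3 window overlapped its listed gene start. For Nlgn1 and Nlgn3 the 250 bases before the listed gene start were thus not searched as a whole. In total, 10 motifs were searched on both strands, with the results of the arrays known: TGACGTCA, the shorter TGACG that lies within it, the AP-1 site TGANTCA, the GC box GGGCGG, the hypoxia response cores ACGTG and GCGTG, the E box CACGTG that contains the first of these, and the pieces TTCAGCACC, CAGCACC (within the former) and GGACAG of the REST element. GCGTG lay in the windows of both Clstn2 and Clstn3, and also in those of Nlgn3 and Clstn1, while 27.2% of all windows held it. CAGCACC lay in that of Clstn3 and of Nlgn2, against 5.51% of all windows. These matches describe the letters of the windows, and the arrays hold no measurement of binding there.

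Clstn3 (probe A_44_P435536) gave log2 signals of 2.25, 2.89 and 2.32 on the control arrays of replicates 1, 2 and 3 at 7 h, and 0.97, 1.55 and 1.41 on the OGD arrays. At 24 h it gave 2.55, 2.34 and 2.15 in controls and 0.30, 1.73 and 0.86 after OGD. The lowest control array was above the highest OGD array at each time. The OGD signal was 44.2% of control at 7 h (log2 difference −1.18, 95% CI −1.93 to −0.43, adjusted p = 0.270). At 24 h it was 38.4% of control (−1.38, 95% CI −2.13 to −0.63, adjusted p = 0.253). Within slides the differences were −1.28, −1.34 and −0.92 at 7 h and −2.25, −0.61 and −1.29 at 24 h, all downward. With the slide as a fixed block both calls were kept. Only 1.86% of genes had a difference as low at 7 h and 0.937% at 24 h. Without the slides of replicate 1 the difference was −1.13 at 7 h and −0.95 at 24 h, and both passed the test.

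Clstn2 (probe A_64_P094347), a calsyntenin linked to inhibitory synapses and memory, was a dim probe, with intensities of 20.8 to 187. Its control arrays read −0.65, −0.48 and −0.58 at 7 h, and its OGD arrays −1.85, −0.94 and −1.19. At 24 h the controls read −0.29, −0.43 and −0.35 and the OGD arrays −1.86, −0.99 and −1.75. The 2 groups did not overlap at either time, and the 6 control arrays lay within a narrow band while the OGD arrays were spread. The OGD signal was 59.3% of control at 7 h (log2 difference −0.75, 95% CI −1.36 to −0.14, adjusted p = 0.337) and 44.3% at 24 h (−1.17, 95% CI −1.78 to −0.57, adjusted p = 0.252).

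The Clstn2 fall at 7 h was less secure than that at 24 h. Within slides it was −1.19, −0.46 and −0.61 at 7 h, and −1.56, −0.56 and −1.40 at 24 h. With the slide as a fixed block both calls were kept. At 7 h, however, the call was lost without the OGD array of replicate 1, where the difference was −0.49, and without the control array of replicate 2, where it was −0.71. At 24 h, leaving out the OGD array of replicate 1 gave −1.01 and kept the call. With normexp, a model-based background correction, the differences were −0.23 at 7 h and −0.55 at 24 h, and neither passed the test. At both times the order of the 3 OGD arrays was the same for Clstn2 and Clstn3, with replicate 1 lowest and replicate 2 highest. The original work on these arrays had already singled out both genes, so their direction here is not independent evidence.

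**Figure D2:**
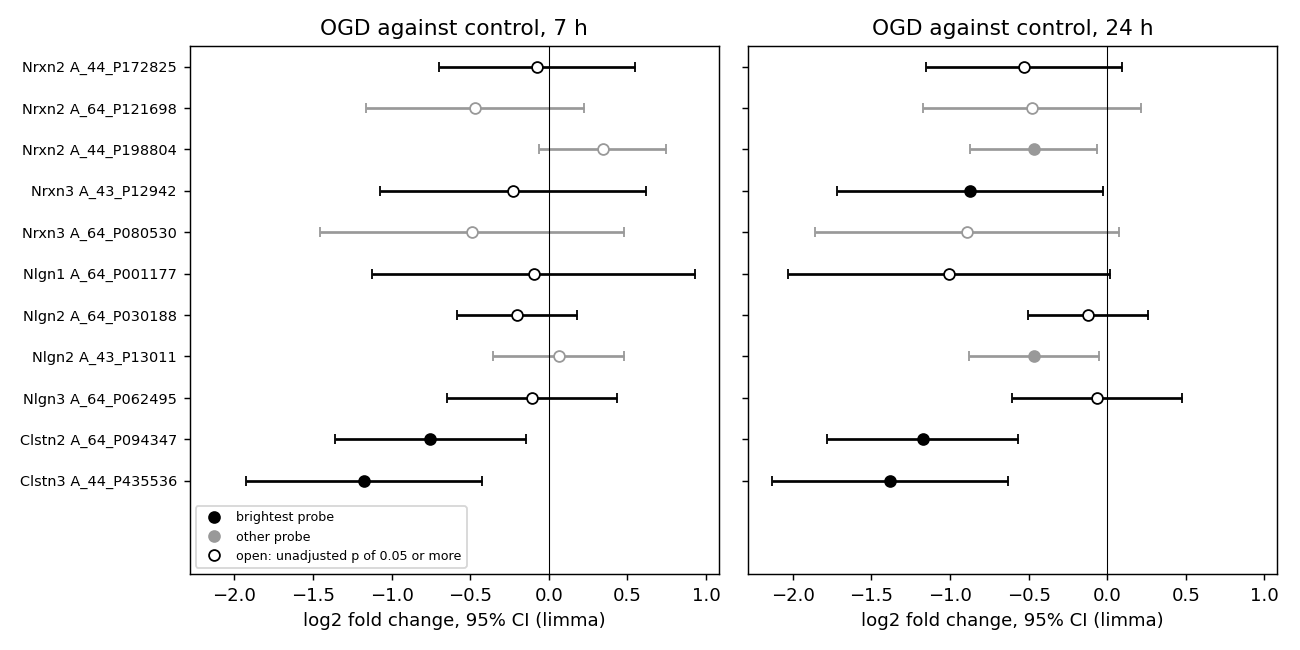
Log2 difference of OGD minus control with its 95% confidence interval from limma for the 11 probes of the 7 members, at 7 h (left) and 24 h (right). Black marks the brightest probe of a gene and gray its other probes, and open symbols have an unadjusted p of 0.05 or more; the intervals of Clstn2 and Clstn3 lie below 0 in both panels.

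The neurexins are given next, since they are the presynaptic partners. Nrxn3 (probe A_43_P12942) read 5.91, 5.53 and 5.23 in the controls and 5.34, 5.36 and 5.28 after OGD at 7 h, where the groups overlapped and the difference was −0.23 (95% CI −1.08 to 0.62). At 24 h the controls read 5.96, 5.40 and 5.18 and the OGD arrays 3.78, 4.63 and 5.51. The OGD array of replicate 3 was thus above 2 of the 3 controls. The OGD signal was 54.6% of control (log2 difference −0.87, 95% CI −1.72 to −0.02, adjusted p = 0.355). Within slides the 24 h differences were −2.18, −0.77 and 0.33, so they ran both ways. With the slide as a fixed block the call was lost. It was also lost without the OGD array of replicate 1 (difference −0.44), without the control array of replicate 1 (−0.65), and without the OGD array (−0.87) or the control array (−0.93) of replicate 2 at 24 h. Leaving out the control array of replicate 2 or any of the OGD arrays at 7 h cost the call too, since this widened the spread shared by the groups. With normexp the Nrxn3 differences were −0.77 at 7 h and −1.18 at 24 h, and neither passed. The second Nrxn3 probe, A_64_P080530, gave −0.49 at 7 h and −0.89 at 24 h, and passed at neither time.

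Nrxn2 (probe A_44_P172825) read 7.33, 7.26 and 7.08 in controls and 6.80, 7.38 and 7.24 after OGD at 7 h, a difference of −0.08 (95% CI −0.70 to 0.55). At 24 h it read 7.78, 7.56 and 7.44 in controls and 6.39, 7.31 and 7.49 after OGD. The difference at 24 h was −0.53 (95% CI −1.15 to 0.09), and the groups overlapped. Within slides it was −1.39, −0.25 and 0.04. Without the OGD array of replicate 1 it was −0.19, and without that of replicate 3 it was −0.74 and passed the test. With normexp the differences were −0.70 at 7 h and −0.98 at 24 h, and neither passed. The 3 probes of Nrxn2 did not behave alike at 7 h. Probe A_44_P198804 read 3.16, 3.06 and 2.86 in controls and 3.52, 3.36 and 3.22 after OGD at 7 h, a difference of 0.34 that missed the test, with no overlap between the groups. At 24 h it fell, from 3.78, 4.13 and 3.91 to 3.24, 3.59 and 3.59, a difference of −0.47 (adjusted p = 0.318), again with no overlap. Probe A_64_P121698 gave −0.47 and −0.48 at the 2 times and passed at neither. Neurexin genes give many splice forms, and the exons these probes read were not given in the sources used here.

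Among the postsynaptic partners, Nlgn1 (probe A_64_P001177) read 1.32, 0.90 and 0.75 in controls and 0.44, 1.15 and 1.10 after OGD at 7 h. The difference was −0.10 (95% CI −1.12 to 0.93). At 24 h the controls read 2.28, 2.60 and 2.07 and the OGD arrays 0.06, 1.65 and 2.23, so replicate 3 was within the control range and replicate 1 far below it. The OGD signal was 49.8% of control (log2 difference −1.01, 95% CI −2.03 to 0.02, adjusted p = 0.371). The within-slide differences were −2.22, −0.95 and 0.15. Without the OGD array of replicate 1 the difference was −0.38, and without that of replicate 3 it was −1.46 and passed the test. Nlgn1 also passed with centring on the 75th percentile of the array (−0.89) and with dim probes left out (−1.01), and the count of falling members at 24 h was then 4. The OGD array of replicate 1 at 24 h is also the dimmest array and was scanned apart from its control. The part of brightness and scan order in these values was not tested.

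Nlgn2 (probe A_64_P030188), the neuroligin of inhibitory synapses, stayed within a narrow range. It read 4.99, 4.69 and 5.04 in controls and 4.79, 4.53 and 4.81 after OGD at 7 h, and 5.44, 5.30 and 5.21 against 5.29, 5.07 and 5.23 at 24 h. The differences were −0.20 (95% CI −0.58 to 0.18) and −0.12 (95% CI −0.50 to 0.26). A fall of the size measured for Clstn3 lies outside both intervals. With normexp the differences were −0.74 and −0.52, and neither passed; the median of all genes at 7 h was then −0.10. Within slides Nlgn2 was lower on all 3 slides at 7 h, by −0.20, −0.17 and −0.24. The second Nlgn2 probe, A_43_P13011, was dim and differed from the first at 24 h: it fell by 0.46 on the log2 scale (adjusted p = 0.330), from −0.58, −0.47 and −0.51 in controls to −1.23, −0.67 and −1.05. At 7 h its difference was 0.06.

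Nlgn3 (probe A_64_P062495) read −1.76, −1.65 and −1.60 in controls and −2.29, −1.45 and −1.60 after OGD at 7 h. At 24 h it read −0.87, −0.69 and −0.56 in controls and −0.42, −0.84 and −1.05 after OGD. The groups overlapped at both times. The differences were −0.11 (95% CI −0.65 to 0.43) and −0.06 (95% CI −0.61 to 0.48). The sign of these differences changed with the scaling of the arrays, since centring on the 75th percentile gave 0.01 and 0.05. Likewise, the 7 h differences of Nrxn2 and Nlgn1 became 0.04 and 0.02 under that centring.

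**Figure D3:**
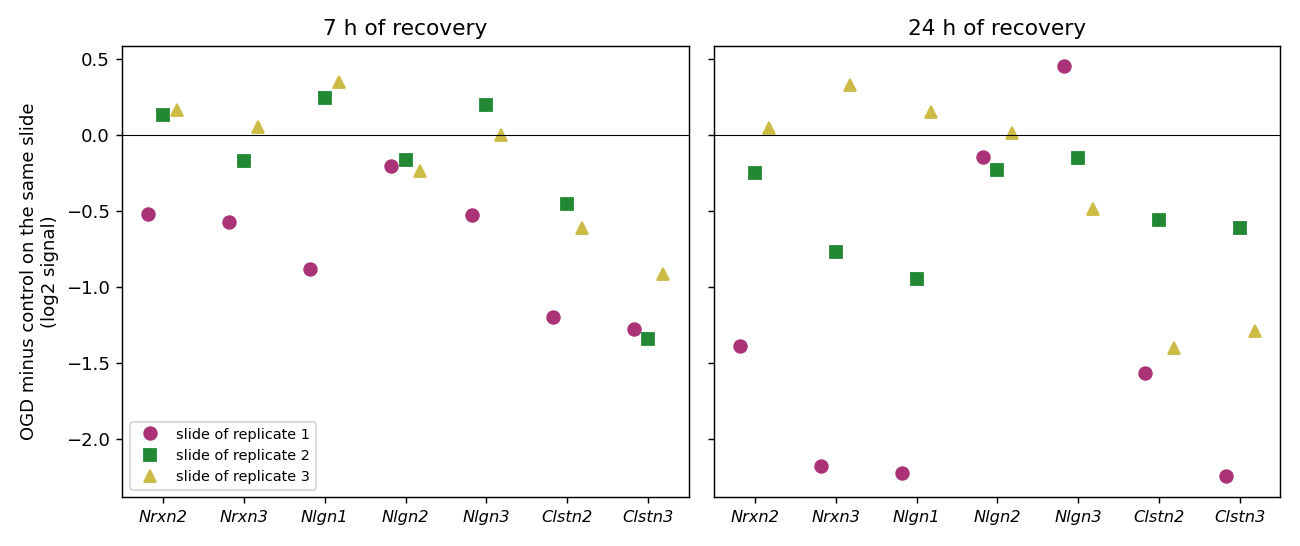
Difference in log2 signal of OGD minus control on the same slide for the brightest probe of each member, at 7 h (left) and 24 h (right), with 1 symbol per slide. For Clstn2 and Clstn3 all 3 slides are below 0 at both times, whereas at 24 h Nrxn2, Nrxn3 and Nlgn1 range from −1.39 or lower on the slide of replicate 1 to above 0 on that of replicate 3.

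Whether the response to OGD itself changed between 7 h and 24 h was tested as an interaction. On the brightest probes 0 of 7 members passed an unadjusted limma threshold of 0.05, where 1.31% of all genes passed with a lower response at 24 h. The change was −0.21 (95% CI −1.27 to 0.86) for Clstn3, −0.42 (−1.28 to 0.44) for Clstn2, −0.64 (−1.84 to 0.56) for Nrxn3 and −0.91 (−2.36 to 0.54) for Nlgn1. These intervals are wide, so Nrxn3 passing at 24 h and not at 7 h is not shown to be a difference between the times. Without the OGD array of replicate 3 at 24 h, 2 members passed with a lower response at 24 h.

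The 2 control groups were compared as well. In control cultures Nlgn3 was higher at 24 h than at 7 h by 0.96 on the log2 scale (SE 0.25, adjusted p = 0.135), Nlgn1 by 1.33 (SE 0.46, adjusted p = 0.251) and Nlgn2 by 0.41 (SE 0.17, adjusted p = 0.315). Thus 3 of 7 members passed in this direction, against 5.46% of all genes. For all 3 neuroligins every control array at 24 h was above every one at 7 h. The share of all genes with such a separation was not computed, and these 3 were already the members that passed. The differences of the other members were 0.37 for Nrxn2, −0.04 for Nrxn3, 0.21 for Clstn2 and −0.15 for Clstn3, and none of these 4 passed. The other probes did not all follow the brightest ones: Nrxn2 probe A_44_P198804 was higher at 24 h by 0.92 (SE 0.18, adjusted p = 0.0759), with no overlap, and Nrxn2 probe A_64_P121698 differed by 0.42 and the second Nrxn3 probe by 0.22. The second Nlgn2 probe was higher by 0.46 (SE 0.19, adjusted p = 0.311). The Nlgn1 call was lost without the control array of replicate 2 at 24 h, where the difference was 1.19. The Nlgn2 call was lost without the control array of replicate 1 or 2 at either time, with differences of 0.30 to 0.45, and on the slides of replicates 2 and 3 alone (0.39). The 2 recovery times lay on different slides, so time and slide cannot be told apart here. This comparison was chosen after its values were seen.

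The order of the 4 groups was as follows. Clstn3 had a mean of 2.49 ± 0.35 (SD, n = 3) in control at 7 h, 2.34 ± 0.20 in control at 24 h, 1.31 ± 0.30 after OGD at 7 h and 0.96 ± 0.72 after OGD at 24 h. The 2 control groups did not differ beyond their spread, and neither did the 2 OGD groups. Nrxn3 had the same order, with 5.55 ± 0.34 and 5.51 ± 0.40 in control at 7 h and 24 h, and 5.32 ± 0.04 and 4.64 ± 0.86 after OGD at 7 h and 24 h. Clstn2 followed with −0.36 ± 0.07 and −0.57 ± 0.09 in control at 24 h and 7 h, and −1.33 ± 0.47 and −1.53 ± 0.47 after OGD at 7 h and 24 h. Nrxn2 was ordered as Clstn2, with 7.59 ± 0.17 and 7.22 ± 0.13 in control at 24 h and 7 h, and 7.14 ± 0.30 and 7.06 ± 0.59 after OGD at 7 h and 24 h. The groups of both neurexins overlapped at 7 h and at 24 h. Nlgn3 was ordered by time instead, with −0.71 ± 0.16 in control and −0.77 ± 0.32 after OGD at 24 h, and −1.67 ± 0.08 and −1.78 ± 0.45 at 7 h. Nlgn2 had the same pattern, with 5.32 ± 0.11 and 5.20 ± 0.12 at 24 h above 4.91 ± 0.19 and 4.71 ± 0.16 at 7 h. For Nlgn1 the control group at 24 h, at 2.32 ± 0.27, stood above control at 7 h, at 0.99 ± 0.29, with the OGD group at 24 h between them at 1.31 ± 1.12 and the OGD group at 7 h lowest at 0.90 ± 0.40.

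The genes that work with these proteins were followed in 6 lists, 97 genes in all, of which 85 had a probe. At 7 h 10 of the 85 fell, or 11.8%, against 8.06% of all genes, and 3 rose, against 3.89%. At 24 h 26 fell, or 30.6%, against 6.9% of all genes, and 1 rose, against 6.36%. The medians were −0.20 and −0.41, against −0.11 and −0.03 for all genes. The adjusted p of the genes named below was 0.196 or higher. The count at 24 h was 9 without the OGD array of replicate 1, 9 without the control array of replicate 1 and 14 without the control array of replicate 2. The 7 h count was 23 without the OGD array of replicate 1 at 24 h, and 4 without the OGD array of replicate 1 or the control array of replicate 1 or 2 at 7 h. Of the calls of the genes named below, 5 were kept and 7 lost at 7 h without the OGD array of replicate 1 at that time, and 5 were kept and 11 lost at 24 h without that of replicate 1 at 24 h. Those kept were Mmp9, C1ql2, Nxph3, Klc4 and Flrt2 at 7 h, and Cadm3, Klc1, Lin7b, Cbln1 and Ptbp1 at 24 h. In what follows, “without replicate 1” leaves out that OGD array of the time in question.

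Ligands and binding partners of the cleft had 16 of 20 genes on the array. Of these, 2 fell and 1 rose at 7 h, and 7 fell and 0 rose at 24 h. Without replicate 1, 2 fell and 0 rose at 7 h, and 1 fell at 24 h with a list median of −0.32. C1ql2, a secreted C1q-like protein that binds neurexin-3 at mossy fiber synapses, read 3.23, 3.21 and 3.44 in controls and 1.24, 1.89 and 2.42 after OGD at 7 h. It fell by 1.44 on the log2 scale at 7 h (adjusted p = 0.196) and by 0.85 at 24 h (adjusted p = 0.307). All OGD arrays of C1ql2 lay below all controls at both times. The neurexophilin Nxph3, a secreted ligand of alpha-neurexins, fell by 1.01 at 7 h and by 0.70 at 24 h. At 24 h Cbln1, the cerebellin that bridges neurexins and glutamate receptors of the delta class, fell by 1.21 and C1ql3 fell by 1.03, and without replicate 1 these differences were −0.85 and −0.55. Adgrl2, a latrophilin, rose by 0.58 at 7 h and differed by 0.24 at 24 h.

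Other synaptic organizers had 27 of 30 genes on the array, of which 2 fell and 1 rose at 7 h, and 8 fell and 0 rose at 24 h. Without replicate 1, 0 fell at 7 h and 2 at 24 h. Lrfn2, a postsynaptic leucine-rich repeat protein also called SALM1, fell by 0.93 at 7 h and by 0.86 at 24 h, and differed by −0.57 and −0.43 without replicate 1. Cadm3, a synaptic immunoglobulin adhesion protein, fell by 0.62 and by 0.79. Slitrk4 fell by 0.86 at 24 h, with a difference of −0.61 without replicate 1. Flrt2, a ligand of latrophilins, rose by 0.50 at 7 h and differed by 0.12 at 24 h. The median of this list was −0.63 at 24 h, and −0.29 without replicate 1.

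Proteins that bind the cytoplasmic tails of neurexins and neuroligins had 21 of 22 genes on the array, of which 3 fell and 0 rose at 7 h, and 7 fell and 0 rose at 24 h. Without replicate 1, 0 fell at 7 h and 4 at 24 h, with a median of −0.31 at 24 h. The postsynaptic scaffold Dlg3 (SAP102) read 2.50, 2.39 and 2.46 in controls at 7 h and 1.25, 1.82 and 1.80 after OGD, a fall of 0.83, and at 24 h it fell by 0.72. Without replicate 1 its differences were −0.64 and −0.31. Apba1 (Mint1), which joins CASK in the presynaptic complex under neurexins, fell by 0.60 and by 0.71. At 24 h the exchange factor Iqsec3 of inhibitory synapses fell by 1.31 and Lin7b, the third partner of that presynaptic complex, by 0.93. Without replicate 1 the differences were −0.70 for Iqsec3 and −0.53 for Lin7b. The Iqsec3 arrays read 6.55, 5.97 and 5.48 in controls and 3.47, 5.01 and 5.59 after OGD at 24 h, with replicate 1 lowest and replicate 3 highest after OGD, as for Nrxn3.

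Kinesin-1, the motor bound by calsyntenin-1, had 5 of 6 subunit genes on the array. At 7 h 2 fell and 1 rose, and at 24 h 1 fell and 0 rose. Without replicate 1, 1 fell and 0 rose at 7 h, and 2 fell at 24 h. The light chain Klc1 read 6.85, 7.13 and 6.80 in controls and 6.01, 6.51 and 6.31 after OGD at 7 h, a fall of 0.65. At 24 h it read 7.22, 6.76 and 6.76 against 5.81, 6.58 and 6.01, a fall of 0.78. Klc1 had no overlap between the groups at either time. This also held for C1ql2, Nxph3, Lrfn2, Cadm3, Dlg3 and Apba1, 7 of the 8 named genes that fell at both times. Full separation below control was found in 17.9% of all genes at 7 h and in 7.55% at 24 h, and its share for both times together was not computed. All 8 had been named for falls that passed the test on these same arrays, so their lack of overlap is not separate evidence. Klc4 fell by 0.45 at 7 h and the heavy chain Kif5b rose by 0.41.

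Proteases that cleave neurexins, neuroligins or calsyntenins had 8 of 9 genes on the array, of which 1 fell and 0 rose at each time. That gene was Mmp9, a secreted protease that sheds neuroligin-1. It read −2.75, −2.48 and −2.25 in controls and −5.33, −5.09 and −3.42 after OGD at 7 h, and −3.58, −2.78 and −3.12 against −5.20, −4.43 and −3.41 at 24 h. It was well above background on all 6 control arrays, on 1 of 3 OGD arrays at 7 h and on 2 of 3 at 24 h, so the differences of −2.12 and −1.19 rest in part on values at the background. Without replicate 1 they were −1.77 and −0.76, and 0 proteases fell at 24 h. Of the RNA-binding proteins that set the splicing of neurexins, 8 of 10 had a probe, and 0 passed at 7 h. At 24 h 2 fell, Rbfox1 by 0.85 and Khdrbs3, a SAM68-like regulator of neurexin exon choice, by 0.77. Ptbp1, the polypyrimidine tract protein that neurons normally keep low, rose by 0.96 at 24 h, from 3.89, 4.26 and 4.33 in controls to 6.12, 4.64 and 4.59. Without replicate 1, 0 of these genes fell at 24 h, and the differences were −0.44 for Rbfox1, −0.41 for Khdrbs3 and 0.46 for Ptbp1.

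**Figure D4:**
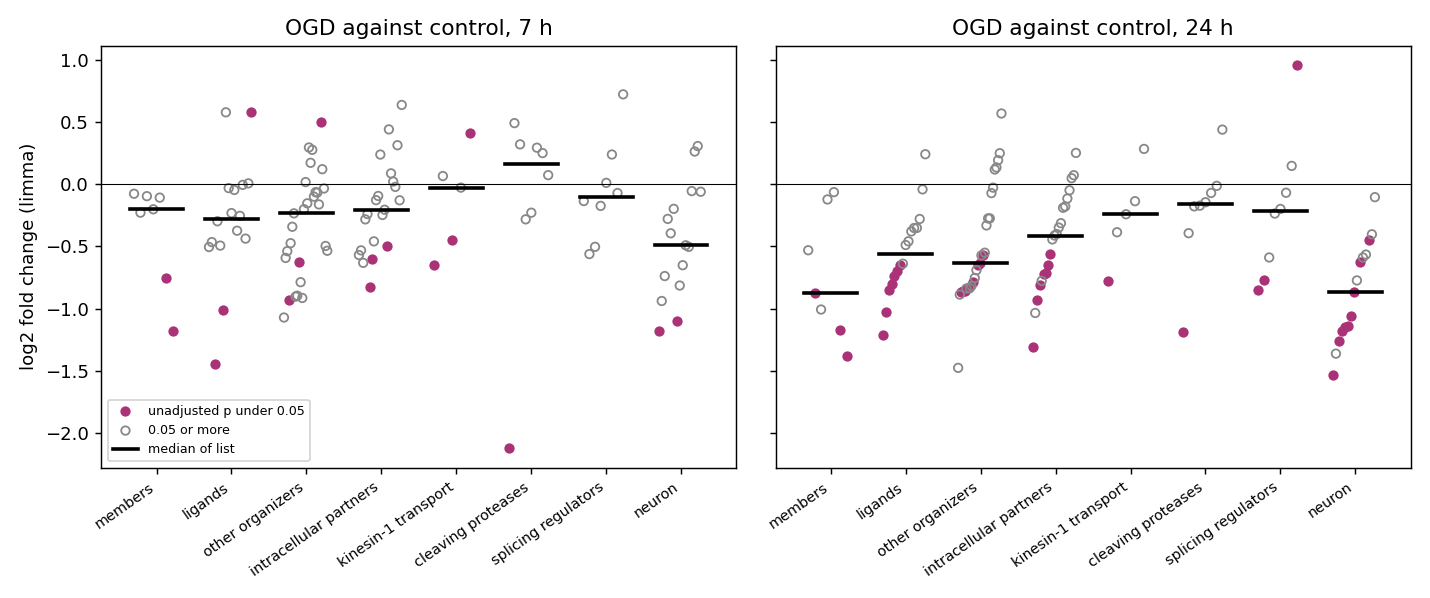
Log2 difference of OGD minus control for each gene of the members, the 6 partner lists and the neuron markers at 7 h (left) and 24 h (right), with 1 point per gene, filled where the unadjusted limma p is under 0.05, and a line at the list median. Median differences at 24 h are −0.87 for the 7 members, −0.56 for ligands, −0.63 for other organizers, −0.41 for intracellular partners and −0.87 for the neuron markers.

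The neuron markers and the members had a similar median difference at 24 h, but not every member moved with the markers. All 15 had a probe well above background on every array, and all 15 had a mean below control at 24 h, where 9 fell and the median difference was −0.87. At 7 h 2 of them fell, with a median of −0.49. Without the OGD array of replicate 1 at 24 h, 4 of the markers fell at 24 h with a median of −0.48. The median of the members was then −0.38. The summed signal of the 15 markers was 9.51 to 10.03 on the log2 scale in controls at 24 h and 8.41 to 9.51 after OGD, with the OGD array of replicate 1 lowest. At 7 h it was 9.38 to 9.77 in controls and 9.26 to 9.71 after OGD. The Stmn2 probe was saturated on 6 arrays and that of Nefm on 1, so the sum is bounded there. At each time 1 of the 15 markers had a lower log2 difference than Clstn3, and 4 had a lower one than Clstn2. At 24 h 7 markers had a lower difference than Nrxn3, and 7 had a lower one than Nlgn1. For the other members, 12 markers had a lower difference than Nrxn2, 14 than Nlgn2 and all 15 than Nlgn3. These counts are over all 15 markers, whether or not they passed the test. In such bulk RNA, fewer neurons and less RNA of a gene per neuron cannot be told apart, and the part of neuron content in these values was not tested.

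Markers of other cells had a probe for 9 of 10 astrocyte, 11 of 11 microglia, 11 of 11 oligodendrocyte and 12 of 12 vascular and fibroblast genes. At 24 h 0 of the astrocyte markers passed and their summed log2 signal was 9.94 to 10.19 in controls and 9.85 to 10.26 after OGD. At 7 h 2 of them rose, Slc1a3 and Aldoc, and 0 did without the OGD array of replicate 1. The Aldoc probe was saturated on 11 of 12 arrays and that of Slc1a3 on 5, so their levels and the sum are bounded there. The sum at 7 h was 9.86 to 10.05 in controls and 10.17 to 10.52 after OGD. Of the microglia markers 1 rose at each time, and the sum was 4.36 to 4.66 in controls and 4.64 to 5.13 after OGD at 24 h. Among them, Ptprc was not well above background on any array. Of the oligodendrocyte markers 2 fell at 7 h and 1 rose at 24 h. Without the OGD array of replicate 1 of the time in question, 0 oligodendrocyte markers passed at either time. Of the vascular and fibroblast markers 2 fell at 7 h and 2 rose at 24 h. Without that array, 1 of them fell at 7 h, and 1 fell and 1 rose at 24 h. The vascular and fibroblast sum was 5.24 to 7.15 in controls and 7.03 to 7.89 after OGD at 24 h. The part of these cells in the members' values was not tested.

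The mean signal of the 7 members was lowest on the OGD arrays of replicate 1, at 1.94 at 24 h and 2.03 at 7 h, and was 2.44 to 2.65 on the other OGD arrays and 2.61 to 3.26 on the control arrays. Among 10922 other genes well above background on all 12 arrays, those whose signal followed this mean most closely were Slitrk1, a postsynaptic organizer (Pearson r = 0.989), Slc45a1 (0.977), Marchf11 (0.977), Khdrbs3 (0.976) and Dlgap1, a scaffold of the postsynaptic density (0.974). These values are over 12 arrays that share the groups and the brightness differences above, and they are a description without a test.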

How the data were processed

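The authors labeled 200 ng of RNA per culture with Cy3, hybridized Agilent rat whole-genome arrays and read them with Feature Extraction 10.5.1.1, which made the deposited intensity values (background-subtracted, not normalized between arrays). Probe design build and annotation beyond the accessions were not needed. The authors also deposited log2 values after median centring in BRB-ArrayTools. Set against the intensities on that scale, they were shifted by a fixed amount on each array (within 0.01 for at least 99.997% of probes), with column medians of 7.57 to 7.72.

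From 42877 non-control spots per array, outlier-flagged spots were removed, log2 values were averaged over replicate spots and the array median was subtracted, giving 30367 probes, with 70 missing values. RefSeq accessions (GRCr8 table) named 18004 probes. Shares of all genes are over 15154 genes, each with its brightest probe. OGD was compared with control by limma 3.58.1 in R 4.3.3 in 1 model of the 4 groups, two-sided, with Benjamini-Hochberg adjustment over all probes. The code was checked on simulated data. Spread is between 3 separate cultures a group, and their number limits the precision. Equal RNA per array and centring make all values relative.

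The methods' t-test gave 1 member with p under 0.05 at 7 h and 2 at 24 h, all of them at least 2-fold lower, and 0 members after adjustment at either time. Over all probes, it left 1 at 7 h and 0 at 24 h. Other scalings, backgrounds, values, filters, blocks and left-out arrays were tried. The files used here hold no mean signal, so normexp, with an offset of 50, took the median signal.

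The members, lists, motifs and tests were chosen with earlier results of these data known. Named partners are, for each list and time, the up to 2 largest falls and rises with p under 0.05. The 5 genes most like the members' mean were named without a test.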

Additional observations from a re-analysis of the deposited data

Results flagged for a closer look

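The response of 1 Nrxn2 probe, A_44_P198804, differed between the recovery times by the interaction test: its OGD minus control difference was 0.34 at 7 h and −0.47 at 24 h, a change of −0.81 on the log2 scale (SE 0.26, adjusted p = 1.00 by limma). On the 3 slides of each time it was higher on all 3 at 7 h and lower on all 3 at 24 h. The mean signal of this probe was 3.02 at 7 h and 3.94 at 24 h in controls, and 3.37 and 3.47 after OGD. The change thus lay mostly between the control groups, and the 2 times were on different slides. The brightest Nrxn2 probe changed by −0.45 and probe A_64_P121698 by −0.01, so the other 2 probes did not pass. Among the 11 member probes this was the 1 that passed the unadjusted threshold of 0.05, and it failed the adjustment over all probes.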

How the results depend on the processing

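Clstn2 and Clstn3 stayed below control at both times under all 24 alternatives. Clstn3 kept its call under all of them at 24 h and under all but scaling to a spike-in at 7 h (−1.98). Clstn2 lost its call under 6 at 7 h and under 1, normexp, at 24 h. The count of falling members at 7 h (2) became 0 with spike-in scaling and 1 with normexp, the methods' t-test and the slides of replicates 2 and 3 only (chosen after seeing the data), and ranged from 1 to 2 with 1 array left out. At 24 h (3) it was 1 with normexp, and 4 with the 75th percentile and with dim probes left out. It was 2 with spike-in scaling, the methods' t-test, limma on each time alone and the mean over the probes of a gene. It was also 2 with the slide as a fixed block and on the slides of replicates 2 and 3 only. With 1 array left out it was 2 to 5, and the count of lower responses at 24 h than at 7 h was 0 to 2. Nrxn3 lost its 24 h call under 15 of the 24 alternatives. The spike-in scaling rests on 1 usable probe of 10 kinds. It moved the median of all genes to −0.91 at 7 h and −1.05 at 24 h, and centring on the 75th percentile to 0.01 and 0.09. The causes were not tested.

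The 7 h difference turned positive for Nrxn2 with the 75th percentile (0.037), on the slides of replicates 2 and 3 (0.15) and without the OGD array of replicate 1 (range with 1 array left out −0.20 to 0.094). It did so for Nlgn1 with the 75th percentile (0.017), on the slides of replicates 2 and 3 (0.30) and without the control (0.068) or OGD array of replicate 1 (range −0.22 to 0.13), and for Nlgn3 with the 75th percentile (0.0053), normexp (0.34), on the slides of replicates 2 and 3 (0.10) and without the OGD array of replicate 1 (range −0.27 to 0.15). The 24 h difference of Nlgn3 turned positive with the 75th percentile (0.049) and without the control (0.0086) or OGD array of replicate 3 (range −0.24 to 0.076).

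Partner genes lower at 7 h (10) were 2 with spike-in scaling and 22 with limma on each time alone, and 4 to 23 with 1 array left out. Those higher at 7 h (3) were 0 with spike-in scaling and normexp, 5 with quantile normalization, 6 with each time alone and 8 with the t-test, and 0 to 8 with 1 array left out. Those lower at 24 h (26) were 4 with spike-in scaling, 6 with the t-test and on the slides of replicates 2 and 3, 11 with each time alone and 15 with normexp, and 9 to 38 with 1 array left out. The 1 higher at 24 h became 2 with the 75th percentile and 0 with spike-in scaling, normexp, the t-test and each time alone, and was 0 to 2 with 1 array left out.

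In controls at 24 h minus 7 h, spike-in scaling moved the median of all genes to −4.62, with −4.20 for Nrxn2, −3.24 for Nlgn1, −4.16 for Nlgn2, −3.61 for Nlgn3 and −4.36 for Clstn2. The differences of the 3 neuroligins thus changed sign. This scaling moves all genes of an array by the same amount, so the neuroligins standing above that median is no separate check. The Nlgn2 call was also lost with the 75th percentile and normexp. Nrxn3 turned positive without the control array of replicate 1 at 7 h or of replicate 2 or 3 at 24 h (range −0.26 to 0.14), and Clstn3 without that of replicate 2 at 7 h (range −0.27 to 0.056).

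Control and OGD arrays of a slide deviated together weakly at most, with r from −0.05 to 0.11 at 7 h and from −0.01 to 0.17 at 24 h. Arrays of different slides gave r from −0.08 to 0.07 at 7 h and from −0.18 to 0.11 at 24 h. The replicate numbers were not taken as pairs, though such r values cannot show that the cultures were unpaired. With the slide as a fixed replicate block, 2 members fell at either time, as did 7 partner genes at 7 h and 19 at 24 h. The calls of Clstn2 and Clstn3 held and that of Nrxn3 was lost. As a random block, with a correlation of 0.0176, 3 members fell at 24 h. The limit of these data is 3 arrays a group, with dim signal for Clstn2 and Nlgn3.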
